A study of Mus musculus with 12 samples.

Results

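Glutathione S-transferases (Gst), UDP-glucuronosyltransferases (Ugt) and cytosolic sulfotransferases (Sult) were followed in RNA from whole mouse kidney. The members were the protein-coding genes of the count table whose symbols begin with a Gst class letter, Ugt1 to Ugt3 or Sult and a digit, with at least 10 counts in 3 or more libraries. Of 64 such symbols 43 reached that minimum, which 15646 protein-coding genes reached in all. They were 20 of 22 Gst, 14 of 21 Ugt and 9 of 21 Sult genes. Just inside the minimum lay Sult1e1, Sult6b1 and Gstp3, the weakest with a mean of 4.17 counts a library, and just outside it lay Gstm3 and Ugt1a5, the stronger with a mean of 5.87. Only 1 of 9 Sult2 genes and neither Sult3 gene reached it, and 5 of the 21 symbols left out had 0 counts in all 12 libraries.

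The study compared kidneys at postnatal day 15 after loss of Cep120, a centriole protein, or of Pkd1, which encodes polycystin-1. Hoxb7-Cre drove both deletions, and its activity is limited to the ureteric bud lineage, which forms collecting ducts, so that other nephron segments keep both genes. Each line had 3 libraries labelled KO and 3 control libraries, whose titles call them het and whose genotype label calls them WT. Beside age, tissue and the conditional line, no further agent or allele is given in the labels, and no label ties the 3 libraries of a group to different animals. The p-values thus measure the spread between libraries, which may be technical.

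Library totals were 23070736 to 31837973 counts. Whole-kidney RNA of neither targeted gene was lower in its KO libraries, and the deleted part is not known here. For Pkd1, controls averaged 17.2 CPM ± 3.998 (SD, n = 3) and libraries labelled KO 28.8 ± 6.69, which edgeR called higher (0.74 in log2, SE 0.20, adjusted p = 0.00952). For Cep120, controls averaged 16.2 ± 2.51 and libraries labelled KO 17.9 ± 2.16. Every direction below therefore rests on the labels. CPM are counts scaled to library size, here with the trimmed mean of M values (TMM). In the Pkd1 line the libraries labelled KO all lacked Xist and the controls all had it, so sex and genotype cannot be told apart there. In the Cep120 line KO 1 and 2 lacked Xist and the other 4 libraries had it. Pkd1 control 3 held Y-linked RNA at 96.95 CPM beside Xist at 49.97, and in Pkd1 KO 3 adrenal cortex markers summed to 1872 CPM, against 2.69 to 6.91 in the other 11 libraries. Less Y-linked RNA (12.01 to 28.26 CPM) stood beside Xist in Cep120 controls 1 and 2 and Cep120 KO 3. Values without Pkd1 control 3 or Pkd1 KO 3 are given where a member's call changes. Cep120 controls 1 and 2 lay nearer each other (chi-squared per gene 5.8) than any other pair of a group (28.3 to 76.5). In the number of genes with a count, Cep120 control 3 and Pkd1 control 3 each lay nearer the other line, as given at the end.

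Conjugation makes reactive or fat-soluble compounds soluble enough to leave the body. Gst enzymes join glutathione to electrophiles, Ugt enzymes in the endoplasmic reticulum transfer glucuronate from UDP-glucuronate, and Sult enzymes in the cytosol transfer sulfate from the donor PAPS. The products are then carried out of the cell by pumps, and glutathione conjugates are trimmed by peptidases of the brush border and acetylated to mercapturates. In the kidney the proximal tubule is the segment best known for this work.

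In the 6 control libraries the pool was dominated by a few genes. Levels are compared between genes here in TPM, a measure scaled per transcript length. Gsta2, an alpha-class Gst, was highest at 507 TPM ± 57.2 (SD, n = 6), with libraries from 444 to 564. Sult1d1, a sulfotransferase of catecholamines in the mouse, followed at 352 ± 83.4, and its range of 243 to 446 overlapped that of Gsta2 and those of the next genes. These were Gstt2 of the theta class at 343 ± 56.4, Gstm1 of the mu class at 323 ± 37.3, Gstm5 at 279 ± 11.1 and Gstz1, the maleylacetoacetate isomerase of tyrosine breakdown, at 258 ± 26.1. The ranges of neighbours in this order overlapped.

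Among Ugt genes Ugt1a2 (222 TPM ± 110, SD, n = 6), Ugt3a2 (213 ± 29.4) and Ugt1a10 (113 ± 21.9) led, and the next, Ugt3a1, was at 19.1 ± 1.72. Ugt1a2 was at 328 and 391 TPM in Cep120 controls 1 and 2 and at 127.5 to 195 in the other 4, and by median Ugt3a2 (204) lay above it (171). In all, 13 members reached 100 TPM and held 88.7% of the summed TPM, while 12 lay at 10 to 100, 11 at 1 to 10 and 7 under 1. The bilirubin transferase Ugt1a1, the estrogen sulfotransferase Sult1e1 and the brain-type Sult4a1 were in the lower groups, at 2.25, 0.0533 and 0.192 TPM.

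**Figure D1:**
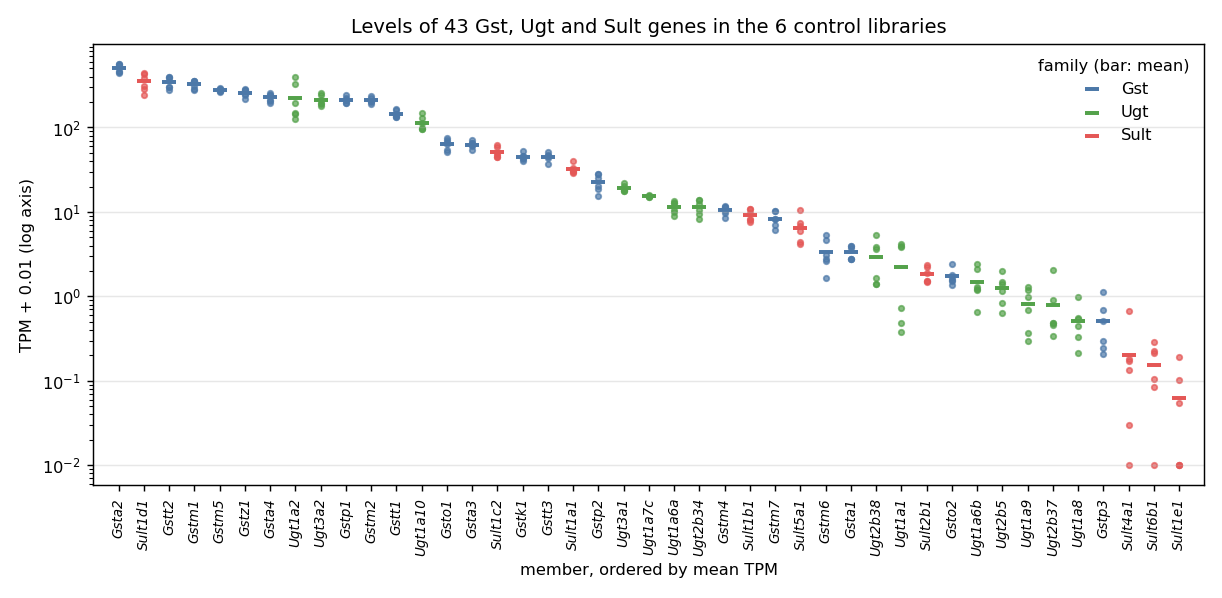
TPM + 0.01 on a log axis for the 43 members in the 6 control libraries (points: libraries, bars: means), ordered by mean and coloured by family. Gsta2 leads at 507 TPM, and 13 members lie at 100 TPM or more.

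Some levels are uncertain because genes share sequence. In GENCODE mouse transcripts 13 of the 43 members shared at least 50% of their 31-base stretches with another gene, and 21 shared under 5%. All 8 Ugt1a genes were in the first group (53.0% to 84.2%), as were Gsta1 (92.9%), Gsta2 (60.7%, of which 44.7% with Gsta1) and Gstp2 (60.3%). Counts of these genes depend on how the submitters' counting split shared reads. Gsta4, Gstm5, Gstz1, Sult1b1, Sult1c2, Sult1d1 and Ugt2b34 shared 2.95% or less.

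The Pkd1 comparison sets kidneys labelled Pkd1 KO against their controls. Of 42 members tested (Sult6b1 was too low), edgeR called 23 at a Benjamini-Hochberg adjusted p under 0.05, or 54.8%, beside 44.4% of all 19890 genes tested. Of these 16 fell and 7 rose, where 22.4% of all genes were lower and 22.1% higher. Sult1e1, among the 7, reached the count minimum only in the libraries labelled Pkd1 KO. Its direction was therefore fixed by the choice of members. It stays in this and the following counts of called, higher and non-overlapping members, but nothing is read from it. At least 2-fold changes were called in 14 members, 12 of them lower and 2 higher (Sult5a1 and Sult1e1), beside 13.2% and 9.9% of all genes. Libraries of both groups did not overlap for 24 members, beside 53% of all genes. Among the 24 members 8 were higher, Sult1e1 and Gstp3 included (27.4% of all genes), and 16 lower (25.5%). Gstp3, which was not called, had 3, 2 and 12 counts in Pkd1 controls 1 to 3. In the libraries labelled Pkd1 KO it had 19, 23 and 14. Elsewhere it had at least 10 counts only in Cep120 KO 2 (14) and Pkd1 control 3. Gstp3 thus reached the count minimum only through libraries labelled Pkd1 KO. The choice of members favoured its higher direction, and nothing is read from it. The median log2 fold change was -0.26 over the members and -0.04 over all genes. In whole kidney, fewer cells of a type and less RNA per cell cannot be told apart.

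Counts by family stand beside 44.4% of all genes called, 22.4% lower and 22.1% higher. Of 20 Gst genes 7 fell and 4 rose, or 55% (median -0.04). Of 14 Ugt genes 7 fell and 0 rose, or 50%, a share called near that of all genes (median -0.98). Of 8 Sult genes 2 fell and 3 rose, Sult1e1 among them, or 62.5% (median 0.01). A difference between families was not tested.

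**Figure D2:**
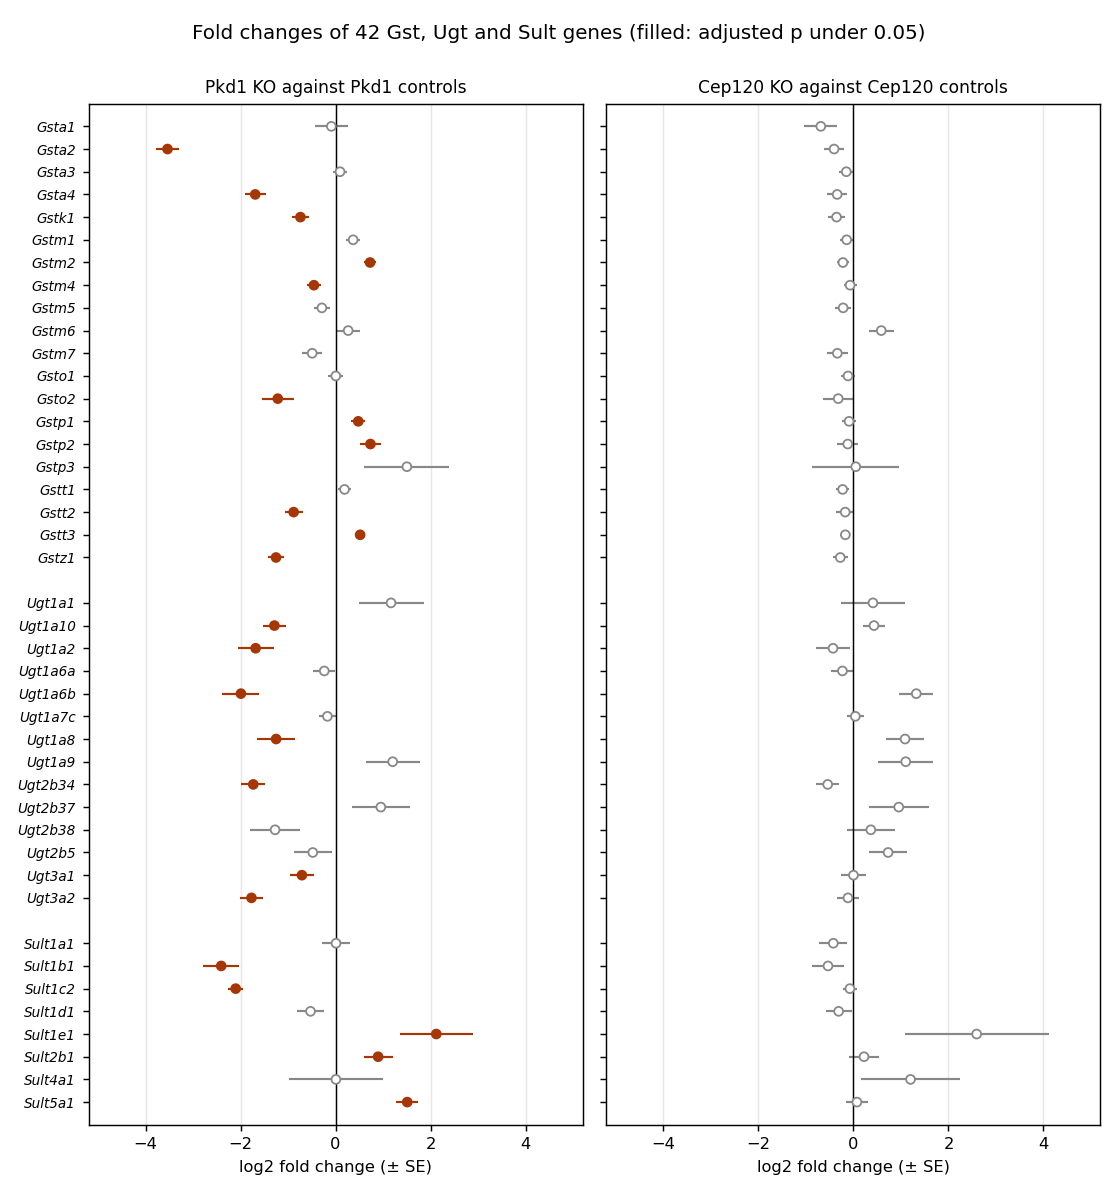
log2 fold change ± SE of the 42 tested members in the Pkd1 line (left) and the Cep120 line (right), in order of family and class, with filled points for an adjusted p under 0.05. On the left 16 members lie lower and 7 higher, led by Gsta2 at -3.54, and on the right no point is filled.

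The alpha-class enzymes, known for reducing organic hydroperoxides, gave the largest fall. Gsta2 (ENSMUSG00000057933) was at 291, 426 and 256 CPM in Pkd1 controls 1 to 3 and at 20.3, 30.1 and 33.5 in Pkd1 KO 1 to 3. Every library labelled KO was far below every control. Gsta2 was 11.6-fold lower (log2 fold change -3.54, SE 0.23, adjusted p = 6.69e-07). Gsta4 (ENSMUSG00000032348), which clears hydroxynonenal from oxidised lipids and shares no sequence of this length with another gene, was at 187, 246 and 135 CPM in the controls and 70.7, 59.5 and 45.6 in the KO libraries. These groups did not overlap either, and Gsta4 fell 3.23-fold (-1.69, SE 0.22, adjusted p = 6.90e-05). The other alpha genes did not pass, with Gsta3 at 0.10 (SE 0.15) and Gsta1 at -0.09 (SE 0.34).

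Smaller falls were called for Gstz1, Gstt2, Gstk1 and Gsto2, single genes of the zeta, theta, kappa and omega classes. Gstz1 (ENSMUSG00000021033) was at 325, 378 and 235 CPM in the controls and at 128, 140 and 125 in the libraries labelled Pkd1 KO. It fell 2.38-fold (-1.25, SE 0.16, adjusted p = 6.74e-05), and its groups did not overlap. Gstt2 was at 263, 369 and 330 CPM against 157, 211 and 154, a fall of 1.84-fold (-0.88, SE 0.19, adjusted p = 0.00231). Gstk1, found in mitochondria and peroxisomes, fell by 0.74 (SE 0.18), and Gsto2, a dehydroascorbate reductase of low level, by 1.22 (SE 0.33). Its neighbour Gsto1, also a dehydroascorbate reductase and far more abundant at 67.3 CPM ± 11.8 in the controls and 67.5 ± 9.14 in the KO libraries, gave 0.01 (SE 0.16).

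Mu and pi enzymes went the other way in part. Gstm2 (ENSMUSG00000040562) was at 173, 209 and 158 CPM in Pkd1 controls and at 294.5, 286.8 and 313 in the libraries labelled Pkd1 KO, with no overlap. It rose 1.66-fold (0.73, SE 0.13, adjusted p = 0.000562). Gstm1 was at 324, 364 and 343 CPM against 556, 430 and 345, so that KO library 3 lay among the controls, and it missed the threshold (0.37, SE 0.15, adjusted p = 0.0618). Without Pkd1 KO 3 it passed, at 0.51 (adjusted p = 0.0134). Of the other mu genes, Gstm4 fell by 0.46 (SE 0.14), a call that ended without Pkd1 control 1, and Gstm5, Gstm6 and Gstm7 did not pass (-0.29, 0.27 and -0.49). Gstm5 was at 194, 254 and 175 CPM in the controls and 140.5, 203 and 166.5 in the KO libraries, which overlapped. Without Pkd1 control 3 Gstm7 passed, at -0.65 (adjusted p = 0.0328).

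The pi-class genes Gstp1 and Gstp2 share 38.5% and 60.3% of their stretches with other genes, mainly each other, so their split is uncertain. Gstp1 was at 136, 158 and 116 CPM in the Pkd1 controls and 183, 188 and 200 in the KO libraries, and Gstp2 at 6.55, 5.33 and 5.29 against 9.51, 9.41 and 9.69. Neither pair of groups overlapped. Gstp1 rose 1.39-fold (0.48, SE 0.15, adjusted p = 0.0222) and Gstp2 1.66-fold (0.73, SE 0.21, adjusted p = 0.0143), a call that ended without both Pkd1 control 3 and KO 3 (0.65, adjusted p = 0.0802). The Gstp1 call ended when any 1 of Pkd1 controls 1 and 3 or Pkd1 KO 2 and 3 was left out, with 0.35 (adjusted p = 0.0886) without control 3 and 0.43 (adjusted p = 0.0746) without KO 3. Gstt3, a theta gene beside Gstt2, also rose, from 63.2, 69.8 and 55.6 CPM to 84.3, 94.9 and 90.6 (0.52, SE 0.10, adjusted p = 0.00160), while Gstt1 did not pass (0.19, SE 0.14). Rises and falls thus stood side by side within the theta run Gstt1, Gstt2 and Gstt3, which are neighbours on chromosome 10.

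The Gst pool was put together differently in the libraries labelled Pkd1 KO. Alpha genes made up 28.8%, 31.9% and 25.8% of the summed Gst TPM in Pkd1 controls 1 to 3 and 9.21%, 9.01% and 8.63% in Pkd1 KO 1 to 3. Mu genes made up 30.0%, 28.3% and 31.4% in the controls and 48.2%, 45.0% and 45.3% in the KO libraries. Neither class overlapped between the groups. The pi share was 8.73% ± 0.611 (SD, n = 3) against 15.8% ± 1.35, the zeta share 9.52% ± 1.44 against 5.45% ± 0.259, and the theta share 18.7% ± 2.76 against 18.9% ± 1.77. Shares add up to 100%, so the fall of the alpha genes by itself pushes the other shares up, though the zeta share fell. In CPM, Gstm2, Gstp1 and Gstp2 were also called higher and Gstm4 lower, as given above. The shares carry no test.

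In the Cep120 line the same shares were 28.8% ± 1.11 alpha and 30.3% ± 0.775 mu in the controls, and 26.0% ± 1.85 and 31.3% ± 2.05 in the libraries labelled Cep120 KO. The alpha shares of the Cep120 groups did not overlap, at 27.6% to 29.7% against 23.9% to 27.3%, but lay far closer than those of the Pkd1 line.

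**Figure D3:**
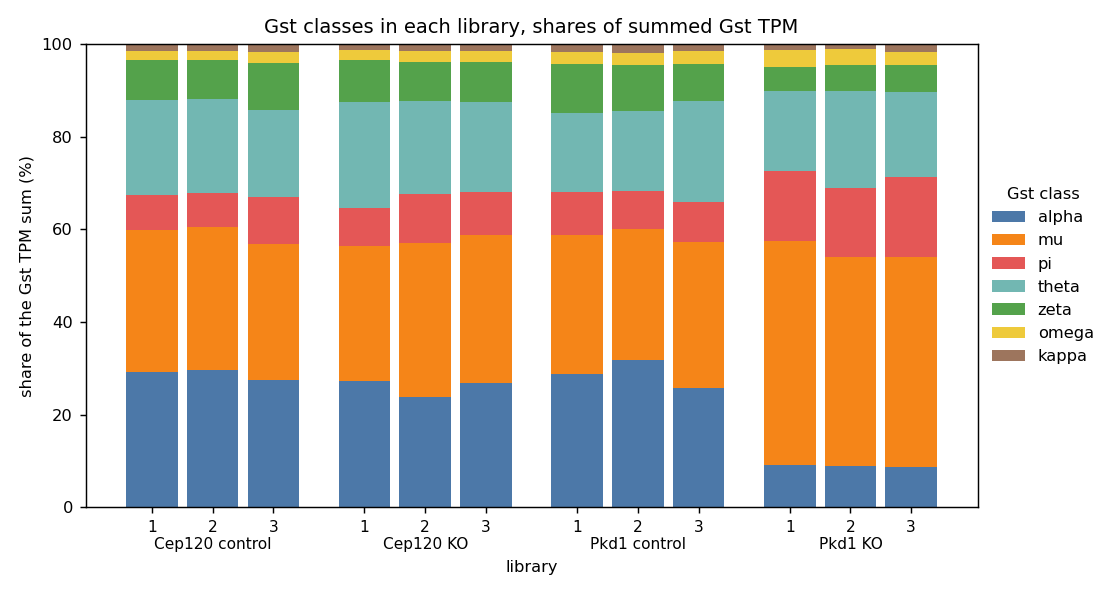
Share of the summed Gst TPM held by each of 7 Gst classes in the 12 libraries, stacked to 100%. Alpha genes hold 8.63% to 9.21% in the 3 libraries labelled Pkd1 KO and 23.9% to 31.9% in the other 9.

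Ugt genes were lower or did not pass in the libraries labelled Pkd1 KO. Ugt3a2 (ENSMUSG00000049152), of a family known to use UDP-sugars other than UDP-glucuronate, was at 482, 570 and 313 CPM in the controls and at 93.0, 181 and 126 in the KO libraries, with no overlap. It fell 3.41-fold (-1.77, SE 0.25, adjusted p = 0.000106). Its neighbour on chromosome 15, Ugt3a1, fell by 0.71 (SE 0.26, adjusted p = 0.0386), but Pkd1 KO 3 at 32.1 CPM lay above Pkd1 control 3 at 29.8, and the call ended without any 1 of Pkd1 controls 1 and 2, Pkd1 KO 1 and 2, and Cep120 controls 1 and 2. Ugt2b34 (ENSMUSG00000029260) was at 34.2, 28.7 and 18.5 CPM against 5.38, 8.99 and 10.2, and fell 3.32-fold (-1.73, SE 0.25, adjusted p = 0.000159). The other Ugt2b genes, Ugt2b5, Ugt2b37 and Ugt2b38, share sequence with each other and did not pass. Ugt2b37 passed as higher without Pkd1 control 3 (2.02, adjusted p = 0.0149), and Ugt2b38 as lower without Pkd1 KO 3 (-1.83, adjusted p = 0.0259), without Pkd1 control 1 and under 4 other alternatives.

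The Ugt1 genes are known as alternative first exons joined to the same later exons, so each has its own start. All 8 members lie in 1 run on chromosome 1. Ugt1a2 (ENSMUSG00000090171) was at 275, 339 and 332 CPM in the Pkd1 controls and at 53.1, 96.5 and 145 in the libraries labelled KO, 3.21-fold lower (-1.68, SE 0.38, adjusted p = 0.00307). Ugt1a10 fell 2.44-fold (-1.29, SE 0.24), from 234, 219 and 186 CPM to 75.5, 126 and 60.5. Ugt1a6b, whose relatives glucuronidate simple phenols, fell 3.98-fold from a low level of 2.57, 1.56 and 4.23 CPM to 0.609, 0.741 and 0.754 (-1.99, SE 0.39, adjusted p = 0.00125), and shares 84.2% of its stretches, mostly with Ugt1a6a.

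Ugt1a8 fell by 1.25 (SE 0.40, adjusted p = 0.0233) at 1.32 CPM ± 0.315 (SD, n = 3) in the controls, a call that ended without Pkd1 control 3 (-1.07, adjusted p = 0.0712), without Pkd1 KO 3 (-1.04, adjusted p = 0.0778) and without Pkd1 KO 2. Ugt1a6a and Ugt1a7c, which are more abundant, gave -0.24 (SE 0.23) and -0.17 (SE 0.17). Ugt1a9 gave 1.203 (SE 0.57, adjusted p = 0.101) and Ugt1a1 1.17 (SE 0.68, adjusted p = 0.181), which passed without Pkd1 control 3 (2.80, adjusted p = 0.00191). Of the 8 genes in this run 4 fell, and the others did not pass. The share called, 50%, was near the 44.4% of all genes, of which 22.4% were lower.

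The bases just before the Ugt1a10 and Ugt1a9 starts are shown because these starts of the same locus had the most alike sequence. They come from RefSeq (build GRCm38.p6, chromosome 1, plus strand, 120 bases ending at the base before the start), and capitals mark their longest shared run, of 32 bases.
Ugt1a10, chr1:88055291-88055410: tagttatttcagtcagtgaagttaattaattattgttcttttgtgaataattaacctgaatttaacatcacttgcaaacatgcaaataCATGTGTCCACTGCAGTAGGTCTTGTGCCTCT
Ugt1a9, chr1:88070659-88070778: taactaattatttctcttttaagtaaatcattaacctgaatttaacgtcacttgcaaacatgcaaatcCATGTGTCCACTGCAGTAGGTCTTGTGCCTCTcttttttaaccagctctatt

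Over the best ungapped alignment 79 of 100 bases of these windows were identical, while the next most alike of the 7 Ugt1 windows compared, those of Ugt1a1 and Ugt1a7c, reached 49.3%. Ugt1a10 fell, as given above. Ugt1a9 was at 2.18, 0.804 and 2.19 CPM in the Pkd1 controls and at 2.37, 7.63 and 2.05 in the KO libraries, with Pkd1 KO 2 far above the rest. The genes share 61.4% of the 31-base stretches of Ugt1a10 and 65.1% of those of Ugt1a9, and a difference between them was not tested.

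Sulfotransferases moved in both directions. Sult1c2 (ENSMUSG00000023122) was at 76.0, 84.8 and 66.1 CPM in the Pkd1 controls and at 13.8, 19.1 and 19.99 in the libraries labelled Pkd1 KO. It fell 4.29-fold (-2.10, SE 0.15, adjusted p = 1.297e-06). Sult1b1 (ENSMUSG00000029269), which sulfates thyroid hormone and phenols, was at 8.14, 9.80 and 7.03 CPM against 0.846, 0.999 and 2.87, and fell 5.30-fold (-2.41, SE 0.37, adjusted p = 0.000235). Groups of neither gene overlapped, but Pkd1 KO 3 lay above the other KO libraries for Sult1b1, whose log2 fold change was -3.18 without it (adjusted p = 6.71e-06).

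Sult5a1 (ENSMUSG00000000739) gave the largest called rise apart from Sult1e1. It was at 5.57, 5.93 and 7.67 CPM in the controls and at 17.8, 17.9 and 18.9 in the KO libraries, 2.85-fold higher (1.51, SE 0.23, adjusted p = 0.000199). Sult2b1, which sulfates cholesterol, was at 2.31, 1.81 and 1.25 CPM against 2.88, 2.77 and 4.38 and rose by 0.90 (SE 0.30, adjusted p = 0.0298), a call that ended without Pkd1 control 2, without control 3 (0.66, adjusted p = 0.111) and without Pkd1 KO 3 (0.64, adjusted p = 0.141).

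Sult1e1 had 5, 1 and 2 counts in Pkd1 controls 1 to 3 and 15, 14 and 11 in the libraries labelled KO, and its call (adjusted p = 0.0442) was lost in 20 of 25 alternatives, so only the counts are given. Sult1d1, the most abundant of the family, was at 570, 572 and 379 CPM in the controls and at 279, 416 and 360 in the KO libraries. The groups overlapped, and it did not pass (-0.53, SE 0.28, adjusted p = 0.135). Sult1a1, a phenol sulfotransferase, gave 0.01 (SE 0.29).

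**Figure D4:**
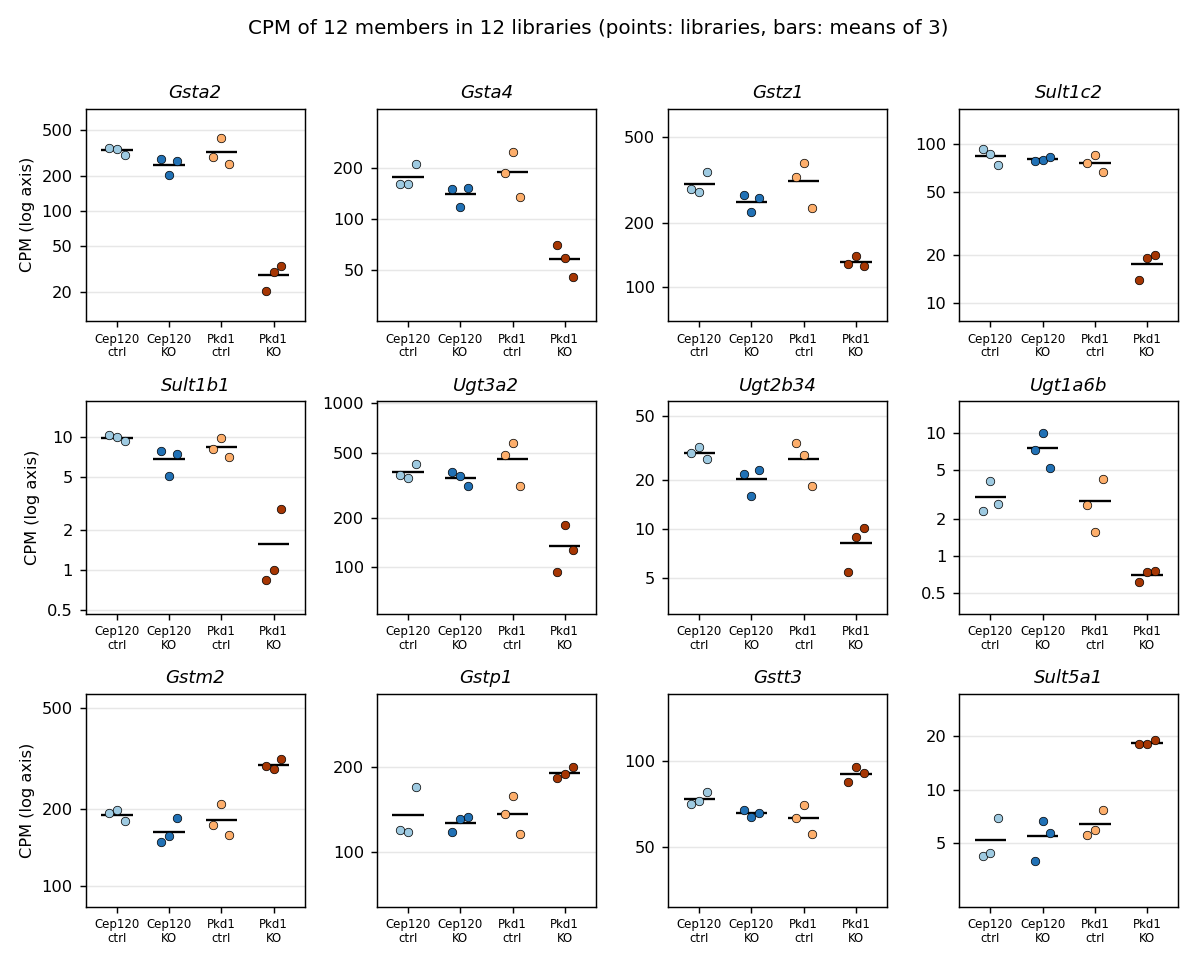
CPM on log axes for 12 members in the 12 libraries (points: libraries, bars: means of 3). The 3 libraries labelled Pkd1 KO lie apart from the 3 Pkd1 controls in every panel, below them in the first 8 and above them in Gstm2, Gstp1, Gstt3 and Sult5a1.

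How far these calls held was as follows. Of the 23 called members, all kept their sign in every alternative that tested them (26, or 25 for Gsto2, Sult1e1, Sult2b1 and Ugt1a8), and 8 also kept the call in each: Gsta2, Gsta4, Gstm2, Gstz1, Sult1c2, Sult5a1, Ugt1a6b and Ugt3a2. Without Pkd1 control 3, 19 of the 23 still passed, without Pkd1 KO 3 also 19, and without both 18. With presence of Xist as a term in the fit 8 passed, and with the level of Y-linked RNA as a term 17. Within a group, presence of Xist varied only among the Cep120 KO libraries, so these alone set the Xist term. In the Pkd1 line, where Xist follows the label, that fit cannot separate sex from genotype. Over all genes the Xist term took the count from 8839 to 2002 (10.1%), and the Y-linked term took it to 4213 (21.2%).

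Markers of the tubule moved with these falls. All 20 proximal tubule markers fell in the libraries labelled Pkd1 KO (median -2.49), and their summed level was 16320, 17210 and 11580 CPM in the controls and 2450, 3666 and 3166 in the KO libraries. Loop of Henle markers fell in 5 of 6 and distal convoluted tubule markers in 4 of 5, while principal cell markers rose in 8 of 10, macrophage markers in 10 of 10 (158 to 532 CPM summed in the controls, 1412 to 2062 in the KO libraries) and fibroblast markers in 7 of 9. Of all genes 22.4% were lower and 22.1% higher. The part of these markers in the members' changes was not tested. Hepatocyte markers summed to 650 to 953 CPM in the Pkd1 controls and 741 to 1307 in the KO libraries, and of 8 tested Fgb (2.10) and Cyp2e1 (2.39) rose and 0 fell, while the defining marker Alb was at 0.226 to 7.0 CPM in all 12 libraries.

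Steps before and after conjugation changed as well. For these lists the shares of all genes were 22.4% lower and 22.1% higher, or 44.4% called. Of 11 genes of glutathione synthesis and recycling 7 fell and 2 rose, or 81.8%. Gclm, the modifier subunit of the enzyme that limits glutathione synthesis, fell by 1.82 (SE 0.13), while Gclc, its catalytic subunit, gave 0.00 (SE 0.13). Ggct and Gss fell by 1.84 and 1.46. Chac1, which degrades glutathione, rose by 3.04 (SE 0.45) from 0.315 CPM in the controls, and the oxoprolinase Oplah by 0.98.

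Genes of the mercapturate path fell in 9 of 12 and rose in 1, or 83.3%, beside 44.4% of all genes (median -1.35). Acy1 and Acy3, which remove acetyl groups, fell by 2.97 (SE 0.29) and 2.17 (SE 0.23). The brush border peptidase Dpep1 fell by 1.88 (SE 0.20) and the leucine aminopeptidase Lap3 by 1.07 (SE 0.14). The gene that rose was Nat8 (1.82, SE 0.40), at 1.08 CPM in the controls. Among 6 genes listed with the membrane-bound glutathione enzymes, the leukotriene gene Alox5ap included, 3 rose and 0 fell, or 50%, near that share of all genes. Mgst1 rose by 0.90 (SE 0.13), Mgst2 by 1.72 (SE 0.61) and Alox5ap, a leukotriene gene of myeloid cells, by 2.47 (SE 0.46), beside the macrophage markers above.

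Donor supply was split. Of 8 genes of UDP-glucuronate supply and removal 2 fell and 3 rose, or 62.5%, beside 44.4% of all genes. Ugp2, which makes UDP-glucose, fell by 0.96 (SE 0.11) and the transporter Slc35d1 by 0.54 (SE 0.12). The lysosomal glucuronidase Gusb rose by 0.86 (SE 0.12). The other rises were Slc35d2 (0.53) and the galactosyltransferase Ugt8a (1.47). Ugdh, which oxidises UDP-glucose to UDP-glucuronate, gave 0.23 (SE 0.11, adjusted p = 0.0882). Of 13 genes of PAPS supply and sulfate removal 6 fell and 3 rose, or 69.2%. The sulfate transporter Slc26a1 fell by 3.10 (SE 0.17) and the PAPS synthase Papss2 by 1.06 (SE 0.16). The other synthase Papss1 rose by 0.37 (SE 0.10) and the sulfate transporter Slc26a2 by 0.90, and the sulfatases Arsb and Arsa went opposite ways, at -1.05 and 1.03.

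Other conjugating enzymes fell in 11 of 15 and rose in 2, or 86.7%, beside 44.4% of all genes (median -1.06). They include the glycine-conjugating pair Acsm1 (-2.42, SE 0.21) and Glyat (-2.01, SE 0.19) and the thiopurine methyltransferase Tpmt (-1.59, SE 0.16). The rises were Nnmt (1.53), which methylates nicotinamide, and the acetyltransferase Nat2 (0.71). Acsm2 and Keg1 of this list, and Hnf4a of the regulators below, are also counted among the proximal tubule markers above. Of 6 export pumps 3 fell and 3 rose, or 100%. Abcg2 fell by 1.304 (SE 0.17), the apical pump Abcc2 by 0.82 (SE 0.18) and Abcc6 by 1.95 (SE 0.26). Abcc4 rose by 1.63 (SE 0.15), Abcc3 by 0.51 and Abcc1 by 0.47. Of 13 known regulators 4 fell and 1 rose, or 38.5%, which is below the 44.4% of all genes. Hnf4a fell by 1.69 (SE 0.15), Esrrg by 1.15 (SE 0.13), and the xenobiotic receptors Nr1i3 by 1.82 (SE 0.31) and Nr1i2 by 1.23 (SE 0.36), and the gene that rose was Nfe2l2.

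Nrf2, encoded by Nfe2l2, is the oxidant-responsive regulator best known for Gst genes. Nfe2l2 rose by 0.39 (SE 0.12, edgeR adjusted p = 0.0154). Of 15 Nrf2 targets outside the members 5 rose and 4 fell, or 60%, beside 44.4% of all genes (median 0.25). By sign alone 10 of the 15 lay above 0 and 5 below. Gclc, Gclm and Slc7a11 are also counted in the list of glutathione synthesis and recycling. The part of Nrf2 in the members' changes was not tested. Cbr3 (2.02), Hmox1 (0.70), Pgd (0.67), G6pdx (0.66) and Ephx1 (0.64) rose, and Gclm, Me1 (-1.53), Taldo1 (-0.61) and Osgin1 (-0.56) fell. The core motif of Nrf2, the antioxidant response element TGACNNNGC, was searched on both strands in the 250 bases before the start. It was in 3 of the 38 members with a RefSeq entry (7.89%), beside 11.5% of 27025 genes. These were Gsta3, Gstm5 and Gstm7, none of which was called. Bases further upstream were not searched, so elements there are missed. In 41 of 48 windows of members the bases after the start matched the start of a transcript of that gene. The windows before Gstm5 and Gsta3 (RefSeq, build GRCm38.p6, plus strand, 150 bases ending before the start, motif in capitals) are shown because alpha and mu genes are textbook targets of Nrf2.
Gstm5, chr3:107895704-107895853: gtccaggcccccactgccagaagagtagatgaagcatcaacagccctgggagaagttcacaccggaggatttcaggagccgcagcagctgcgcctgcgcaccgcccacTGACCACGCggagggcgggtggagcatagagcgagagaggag
Gsta3, chr1:21240435-21240584: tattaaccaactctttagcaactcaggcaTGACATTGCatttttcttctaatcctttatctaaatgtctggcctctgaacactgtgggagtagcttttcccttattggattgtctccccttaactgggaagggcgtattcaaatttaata
The matches lay 42 bases before the start of Gstm5 and 121 before that of Gsta3. Neither gene passed in the Pkd1 comparison, with log2 fold changes of -0.29 (SE 0.16) and 0.10 (SE 0.15).

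**Figure D5:**
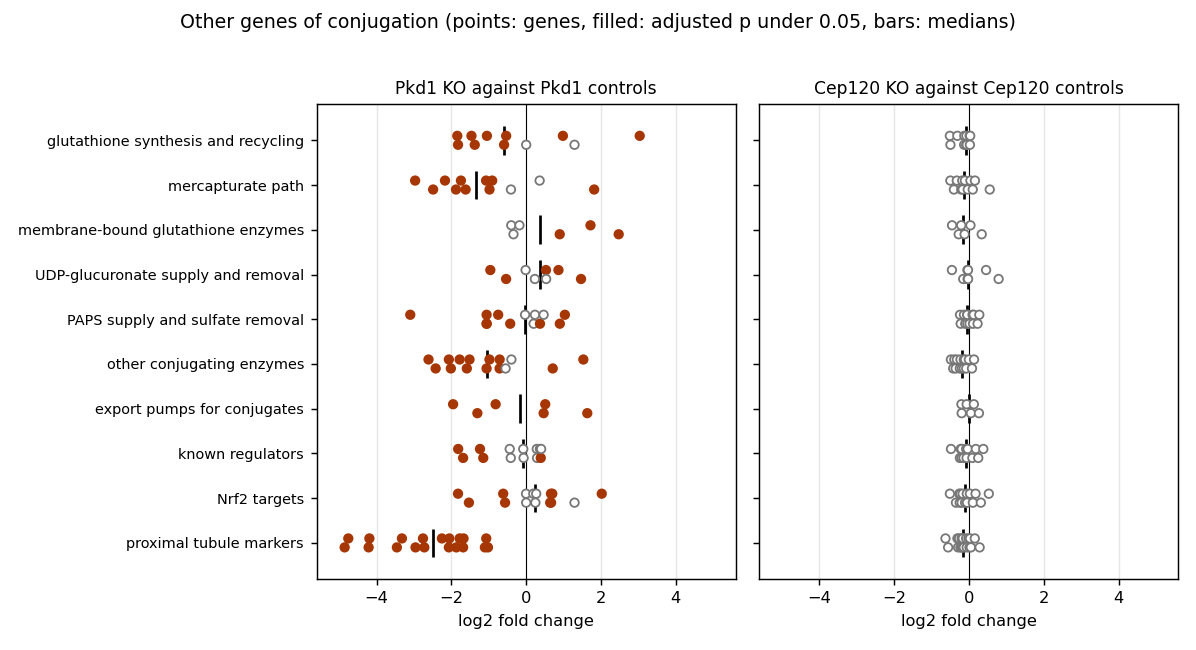
log2 fold change of genes in 9 lists around conjugation and of 20 proximal tubule markers, for the Pkd1 line (left) and the Cep120 line (right); filled points passed an adjusted p of 0.05 and bars are medians. Medians on the left reach -1.35 for the mercapturate path and -2.49 for the markers, and no point on the right is filled.

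The Cep120 comparison asks what changes in kidney after loss of the centriole protein. No member was called: edgeR gave 0 of 42, beside 0% of all 19890 genes, and DESeq2 and limma voom also gave 0 members. At an unadjusted p under 0.05 there were 4 of 42, beside 6.04% of all genes. Libraries of both groups did not overlap for 15 members, beside 16.5% of all genes, with 5 higher (8.64% of all genes) and 10 lower (7.88%), and 26 of 42 members lay below 0 (median -0.12, all genes 0.01).

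Gst values were small and mostly negative in the Cep120 line. Of 20 Gst genes 18 lay below 0, with a median of -0.19, and proximal tubule markers lay below 0 in 15 of 20 (median -0.17). Gsta2 was at 350, 345 and 307 CPM in Cep120 controls 1 to 3 and at 279, 205 and 271 in the libraries labelled Cep120 KO. These ranges did not overlap, but the fit did not call it (-0.41, SE 0.21, adjusted p = 0.757). Gsta4 gave -0.34 (SE 0.22), Gstz1 -0.28 (SE 0.16), Gstm1 -0.14 (SE 0.15) and Gstp1 -0.09 (SE 0.15).

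Ugt values pointed upward in 10 of 14, with a median of 0.39, again without a call. The smallest p-value was that of Ugt1a6b, at 2.31, 4.03 and 2.64 CPM in the Cep120 controls and 7.27, 10.02 and 5.18 in the libraries labelled KO (1.32, SE 0.36, edgeR adjusted p = 0.757). Its groups did not overlap, and it was called only in the fit with no filter on low counts. Next came Ugt1a8, at 0.798, 0.570 and 0.406 CPM in the Cep120 controls and 1.35, 1.37 and 1.06 in the libraries labelled KO (1.09, SE 0.40). Gstm6 was at 2.65, 1.51 and 2.72 CPM against 3.23, 3.74 and 3.34 (0.59, SE 0.26), and Ugt2b34 at 29.6, 32.1 and 27.2 against 22.04, 15.98 and 23.03 (-0.54, SE 0.24). None of these groups overlapped. Sult1c2, at 93.0, 86.2 and 73.5 CPM against 78.4, 78.9 and 82.5, gave -0.08 (SE 0.15).

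Whether the effects of the 2 lines differ was tested with an interaction term. Of 42 members 13 passed, beside 28.1% of all genes, with the Pkd1 effect lower in 10 and higher in 3. Ugt1a6b, called lower in the Pkd1 line and above 0 without a call in the Cep120 line, differed by -3.315 (SE 0.53, adjusted p = 0.000765). Without Pkd1 control 3 it differed by -2.915. Its value in the Cep120 line was 0.79 with the Xist term and 0.72 with the Y-linked term. Gsta2 differed by -3.13 (SE 0.31, adjusted p = 3.79e-05) and Sult1c2 by -2.03 (SE 0.21, adjusted p = 5.37e-05). Ugt1a10, Ugt1a8, Sult1b1, Ugt3a2, Gsta4, Ugt2b34 and Gstz1 were the other lower members, and Gstm2 (0.95, SE 0.18), Gstt3 (0.69, SE 0.15) and Sult5a1 (1.435, SE 0.32) the higher ones. Of the 13, 12 passed in every alternative, and Ugt2b34 (-1.19, SE 0.35, adjusted p = 0.0238) did not: its call ended without Pkd1 control 1, Cep120 KO 1 or Cep120 KO 3, among others. Without Pkd1 KO 3 Sult1b1 differed by -2.64, and Gstm1 (0.65, adjusted p = 0.0267), Ugt1a2 (-1.655, adjusted p = 0.0337), Ugt3a1 (-1.06, adjusted p = 0.0280) and Ugt2b38 (-2.19, adjusted p = 0.0487) passed as well. Without Pkd1 control 3 Ugt1a1 did (2.39, adjusted p = 0.0244).

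The controls of the lines were compared as a background. edgeR called 0 of 42 members, beside 0% of all genes, as did DESeq2 and voom, and 6 members lay at an unadjusted p under 0.05, beside 4.19%. The control groups did not overlap for 5 members, beside 8.12% of all genes, with 4 higher in the Pkd1 controls (4.18%) and 1 lower (3.94%). The smallest p-values were those of Gstm6 (0.85, at 2.65, 1.51 and 2.72 CPM in the Cep120 controls and 4.36, 3.57 and 4.42 in the Pkd1 controls), Sult1e1 (0, 0 and 0 counts against 5, 1 and 2), Ugt1a8 (1.15, SE 0.41) and Gsto1 (0.36, SE 0.16).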

How the data were processed

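RNA of 12 whole-kidney libraries, 3 for each of 4 groups, was analysed from gene-level tables. The authors deposited estimated counts per gene, TPM and moderated log2 CPM values. The submitters' processing notes name STAR 2.5.1a, featureCounts 1.4.6-p5, Salmon 0.8.2 and mm9, with no role, so which tool made which table is not known here. Of 55774 gene lines 287 repeats were dropped. The estimated counts, 21.57% of genes having values that are not whole, were rounded. Genes were tested with edgeR 4.0.16 (quasi-likelihood F test, TMM scaling, filterByExpr on low counts, R 4.3.3) over all 12 libraries without a block, with Benjamini-Hochberg adjustment over the 19890 genes tested. Checks used DESeq2 1.42.0 and limma 3.58.1, and the fit was tested on simulated data. Members given in every library were the 6 with the highest control TPM, up to 8 called falls and 8 called rises per comparison whose groups did not overlap (mean log2 CPM of at least 0), the 4 smallest p-values where under 4 were called, and the 2 largest differences each way. Pathway genes named were the 4 with the smallest p-value per list and any needed for a count of 5 or fewer. Gclc, Ugdh and the library values of Ugt1a10 were chosen after their values were seen. Members and lists were chosen with earlier results of these data known. Library totals limit weak genes, for which counts are given. TPM was used only for levels between genes and for shares, because its scale against TMM CPM differed between groups. Some items of the lists are not reported here.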

Additional observations from a re-analysis of the deposited data

Results flagged for a closer look

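For 12 of the named members the effects in the 2 lines differed by the interaction test (edgeR quasi-likelihood, Benjamini-Hochberg adjustment over all genes), as the log2 fold change in the Pkd1 line minus that in the Cep120 line. The named members were chosen in part by their Pkd1 calls and by this difference. Their count is therefore not comparable with a share of all genes. Of all 42 members tested 13 passed, beside 28.1% of all genes. The Pkd1 effect was lower for Ugt1a6b (-3.315, adjusted p = 0.000765), Gsta2 (-3.13, adjusted p = 3.79e-05), Ugt1a8 (-2.338, adjusted p = 0.0097), Sult1c2 (-2.027, adjusted p = 5.37e-05), Sult1b1 (-1.872, adjusted p = 0.0152) and Ugt3a2 (-1.654, adjusted p = 0.00374). It was also lower for Gsta4 (-1.349, adjusted p = 0.00682), Ugt2b34 (-1.191, adjusted p = 0.0238) and Gstz1 (-0.9768, adjusted p = 0.00801). It was higher for Gstt3 (0.6874, adjusted p = 0.00493), Gstm2 (0.9477, adjusted p = 0.00225) and Sult5a1 (1.435, adjusted p = 0.00633).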

How the results depend on the processing

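Of 2396 values of named members under alternatives, 2311 kept their side of the threshold or, for levels, stayed within 1 SD. Many belong to the Cep120 and control comparisons, where edgeR called 0 of 19890 genes, so a change of side was unlikely there. The total therefore says little about the calls in the Pkd1 line, of which 8 of 23 held in every alternative. No called value changed sign, but values that were not called did, such as Gsto1 in the Pkd1 line (-0.11 to 0.30). The count of members called in the Pkd1 line (23) was 8 with a term for presence of Xist, set by the Cep120 KO libraries alone. It was 15 at an adjusted p of 0.01 and 14 at a 2-fold change, and 19 to 24 when 1 library was left out. Over all genes the share called was 10.1% with the Xist term, 23.1% at a 2-fold change and 35.1% to 44.6% when 1 library was left out. Of the other settings the count of members was 21 with the replicate block (39.4% of all genes), 23 with DESeq2 (22.6%) and 24 with voom (43.65%). In the Cep120 line the count was 1 with no filter on low counts (Ugt1a6b) and 0 whichever library was left out. Between the controls it was 1 with no filter (Ugt1a2), 1 with both replicate 3 controls left out (Ugt1a1), and 0 whichever library was left out. For the difference it was 18 with no filter (15.2% of all genes), 14 with the replicate block (22.5%) and 12 to 17 when 1 library was left out (20.5% to 28.0%). Same-numbered libraries did not deviate together in the Pkd1 line (correlations -0.096, -0.0432 and -0.136). In the Cep120 line their correlations were 0.178, -0.054 and 0.148, against -0.2 to 0.11 for libraries of different number. Numbers 1 and 3 thus lay above the unlike pairs there, but weakly. The numbers were not taken as pairs, and counts with a replicate block are given above. The fit without both Pkd1 control 3 and Pkd1 KO 3 was chosen after seeing the data.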

Other observations

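Ugt1a1, the bilirubin transferase, was chosen after its values were seen. It was at 7.93, 7.16 and 1.501 CPM in Cep120 controls 1 to 3 and at 0.717, 1.16 and 6.76 in Pkd1 controls 1 to 3. In each set of controls the library numbered 3 stood apart, low in the Cep120 line and high in the Pkd1 line. Over all genes these libraries also stood apart from their own line: Cep120 control 3 had a count in 25652 genes, against 30289 to 32705 in the other Cep120 libraries, and Pkd1 control 3 in 30979, against 23532 to 25216 in the other Pkd1 libraries. By this measure Cep120 control 3 lay nearer the Pkd1 libraries, and Pkd1 control 3 lay within the range of the Cep120 libraries. Without both, edgeR called 371 genes between the controls, against 0 with them. The part of this in the values of Ugt1a1 was not tested. The libraries labelled KO lay between 5.86 and 7.92 CPM in both lines. Without Pkd1 control 3 edgeR called Ugt1a1 higher in the libraries labelled Pkd1 KO, at 2.80 on the log2 scale (adjusted p = 0.0019).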
